A study of Mus musculus with 12 samples.

Results

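The interferon-inducible p200 genes, also called the PYHIN genes, were followed in 20 h activated mouse CD4 T cells with and without the RNA cap methyltransferase gene *Rnmt*. The 6 genes described as members were Ifi203, Ifi204, Ifi213, Ifi214, Mndal and Aim2, taken by gene symbol out of 49585 genes counted in each library. They were chosen by their genotype differences in total RNA and RPF reads, so the genotype values of these 6 genes are given as a description and without p-values. The annotation held 14 p200 genes in all, and the other 8 were used for comparison. Of these 8, 3 had enough reads to be tested.

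p200 proteins typically combine a pyrin domain, which binds other proteins with the same fold, with a HIN domain, which binds DNA. AIM2 senses double-stranded DNA in the cytosol and builds an inflammasome with the adaptor ASC, encoded by Pycard, and caspase-1. IFI204 is a DNA sensor that acts through STING, and MNDAL and IFI203 are mainly nuclear proteins. The mouse genes lie side by side on chromosome 1, are known for their induction by interferon, and carry stretches of closely similar sequence.

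Cells came from female mice on a C57B6/J background, were isolated from lymph nodes as naive CD4 T cells with a magnetic kit. They were activated for 20 h on plates coated with antibodies to CD3 (5 ug/ml) and CD28 (1 ug/ml), and met 0.1 mg/ml cycloheximide for 1 min before lysis. Control cells had the genotype *Rnmt* fl/fl CD4cre -, and *Rnmt* cKO cells carried the same floxed alleles with CD4-Cre, a transgene that is active from the double-positive stage of thymic development and so deletes in all later CD4 and CD8 T cells. Deletion of *Rnmt* and presence of Cre cannot be told apart, since no control carried Cre. Total cytoplasmic RNA and ribosome protected fragments (RPFs) were sequenced from 3 control and 3 *Rnmt* cKO samples each, 12 libraries in all. The ages of the mice were not given, and the labels did not say whether replicates were separate animals, so p-values measure the spread between these samples.

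Reads counted in genes numbered 18915961 to 19111659 in the total RNA control libraries, 15079703 to 22629563 in total RNA *Rnmt* cKO, 6786164 to 10661356 in RPF control and 4123271 to 10166729 in RPF *Rnmt* cKO. RPF *Rnmt* cKO replicate 3 was the shallowest library. The targeted gene fitted the labels in every library: *Rnmt* stood at 95.4, 94.4 and 94.6 CPM, the count of a gene scaled to its library's size, in the total RNA controls and at 28.9, 31.9 and 30.8 in *Rnmt* cKO, and at 105, 87.6 and 101 against 10.4, 10.4 and 9.29 in RPFs. *Rnmt* fell by 1.62 on the log2 scale in total RNA (standard error (SE) 0.06) and fell by 3.24 in RPFs (SE 0.10), with adjusted p-values of 5.8e-06 and 4.8e-06. All adjusted p-values came from quasi-likelihood fits in edgeR, with the Benjamini-Hochberg method over all genes tested. CPM values are relative to the RNA sequenced, so a change in RNA per cell, or in the share of cells that express a gene, cannot be told apart from a change in the level within those cells.

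The family filled chr1:173350879-174031810 of GRCm38, a stretch of 0.681 Mb that opened with Aim2 and closed with Ifi205. Each of Ifi203, Ifi213, Ifi214 and Mndal had, just before its RefSeq start, the same run of 10 bases made of GAAA, any 2 bases and GAAA, the core of the sites bound by interferon regulatory factors. The motif was searched on both strands from 250 bases before to 50 after each RefSeq start (GRCm38.p6), where 5 members and 7 other p200 genes had an entry. It was present for 4 of the 5 members, all but Aim2, and for 5 of the 7 other genes. Over all 32851 promoter windows, 3.44% held it, and 3.99% of the 27025 genes had it in at least 1 window. The matches of Ifi205, Ifi207 and Ifi211, and another of Mndal on the opposite strand, are not shown. A second motif, TTCNNNGAA with N for any base, was searched in the same windows. It was present for 0 of the 5 members and 1 of the 7 other genes, and for 9.55% of all genes. The stretches below are on the strand of each gene, 30 bases each, with the match in capitals. They are shown because they are so alike between genes.
Ifi214: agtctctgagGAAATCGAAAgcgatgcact
Ifi213: cgtctctgagGAAATCGAAAgctatgaacc
Ifi208: cgtctctgagGAAATCGAAAgctatgaacc
Ifi206: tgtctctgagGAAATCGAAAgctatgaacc
Mndal: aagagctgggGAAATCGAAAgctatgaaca
Ifi203: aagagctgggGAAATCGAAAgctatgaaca

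These stretches lay at chr1:173536017-173536046 for Ifi214, chr1:173599326-173599355 for Ifi213, chr1:173673597-173673626 for Ifi208 on the plus strand, chr1:173491339-173491368 for Ifi206, chr1:173880204-173880233 for Mndal and chr1:173942508-173942537 for Ifi203, all on the minus strand except Ifi208. The match began 79, 73, 58, 40, 36 and 35 bases before the start in the same order. Ifi213 and Ifi208 shared all 30 bases, and so did Mndal and Ifi203. These matches are descriptions of the letters in the windows. Ifi204 had no entry.

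In control cells, total RNA levels per kb of exon spanned a wide range over the family. Ifi209, one of the comparison genes, was the highest at 28.2 ± 1.32 CPM per kb (SD, n = 3). Mndal followed at 18.4 ± 2.17, Ifi214 at 13.8 ± 0.959, Aim2 at 7.89 ± 0.667 and Ifi203 at 2.96 ± 0.458. Ifi206 at 2.05 ± 0.285, Ifi208 at 1.49 ± 0.0445 and Ifi213 at 1.00 ± 0.101 closed the order, and on this scale no neighbours in the order had overlapping libraries.

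The order depended on the length used. Per kb of coding sequence, Ifi214 rose past Mndal in total RNA, with 60.5 ± 4.21 against 23.5 ± 2.78 CPM per kb. Its annotated coding length was 657 of 2888 exonic bases. Mndal and Aim2 (21.1 ± 1.78) overlapped on this scale. Ifi213 (2.80 ± 0.281) then stood above Ifi208 (2.53 ± 0.0755) and Ifi206 (2.26 ± 0.314), with overlap between neighbours in this order. In control RPFs, also per kb of coding sequence, the order was Ifi209 (72.6 ± 5.58), Ifi214 (45.4 ± 3.27), Mndal (25.3 ± 3.91), Aim2 (15.9 ± 1.08), Ifi203 (7.35 ± 0.760), Ifi208 (6.31 ± 1.15), Ifi206 (2.39 ± 0.368) and Ifi213 (1.87 ± 0.677). The libraries of Ifi203 overlapped those of Ifi208, and those of Ifi206 overlapped those of Ifi213.

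Ifi204 (ENSMUSG00000073489, chr1:173747293-173766943, minus strand) was close to silent in these cells. It had counts of 1, 0 and 0 in the total RNA controls, 0, 0 and 1 in total RNA *Rnmt* cKO, 0, 0 and 0 in RPF controls and 1, 0 and 0 in RPF *Rnmt* cKO. A count of 0 allows up to 3 counts in a library, so no difference in Ifi204 was detectable at this depth. The remaining 5 members passed the filter on low counts, for which 3 libraries out of the 6 of total RNA or of RPF had to exceed a CPM of 1. Among the other genes, Ifi202b, Ifi203-ps, Ifi205, Ifi207 and Ifi211 did not pass it. Of these, Ifi211 had the most reads, with 3, 2 and 10 counts in total RNA controls and 8, 8 and 14 in total RNA *Rnmt* cKO.

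All 5 members with reads were lower in *Rnmt* cKO total RNA, and in each of them the highest *Rnmt* cKO library was below the lowest control. That was so for 32.6% of the 11519 genes tested, and the opposite for 29.3%, while 28.0% were called decreased. Ifi214 and Ifi213 stood at 21.1% and 24.5% of the control mean, and Aim2, Mndal and Ifi203 at 44.6%, 58.4% and 64.0%, as the plot of p200 genes by library shows.

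Ifi214 (ENSMUSG00000070501, chr1:173519717-173535957, minus strand) was the member with the largest difference. Its total RNA CPM was 37.3, 39.2 and 42.7 in controls and 6.30, 8.47 and 10.4 in *Rnmt* cKO. The log2 fold change was -2.22 (SE 0.15). The groups were far apart, and the *Rnmt* cKO libraries varied more among themselves, relative to their mean, than the controls.

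Ifi213 (ENSMUSG00000073491, chr1:173566283-173599274, minus strand) was the least abundant member that passed the filter. Total RNA CPM was 5.25, 4.41 and 5.30 in controls and 1.27, 0.811 and 1.58 in *Rnmt* cKO, with a log2 fold change of -2.01 (SE 0.23). These levels rested on 83 to 99 counts in each control library and on 16 to 36 in each *Rnmt* cKO library.

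Aim2 (ENSMUSG00000037860, chr1:173350879-173466040, plus strand), the inflammasome receptor gene, had 22.8, 24.1 and 20.3 CPM in control total RNA and 11.3, 9.59 and 9.15 in *Rnmt* cKO. The log2 fold change was -1.16 (SE 0.12). Both groups were tight, with no overlap.

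Mndal (ENSMUSG00000090272, chr1:173849126-173942491, minus strand) had 35.4, 35.3 and 43.1 CPM in control total RNA against 24.9, 15.6 and 26.0 in *Rnmt* cKO. Its log2 fold change was -0.77 (SE 0.18). Replicate 2 was the lowest of the *Rnmt* cKO libraries and control replicate 3 the highest of the controls.

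Ifi203 (ENSMUSG00000039997, chr1:173920407-173942672, minus strand) had the smallest difference. Its CPM was 12.3, 16.0 and 16.5 in control total RNA and 9.78, 9.08 and 9.85 in *Rnmt* cKO, a log2 fold change of -0.63 (SE 0.13). The lowest control library was still above the highest *Rnmt* cKO library.

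**Figure D1:**
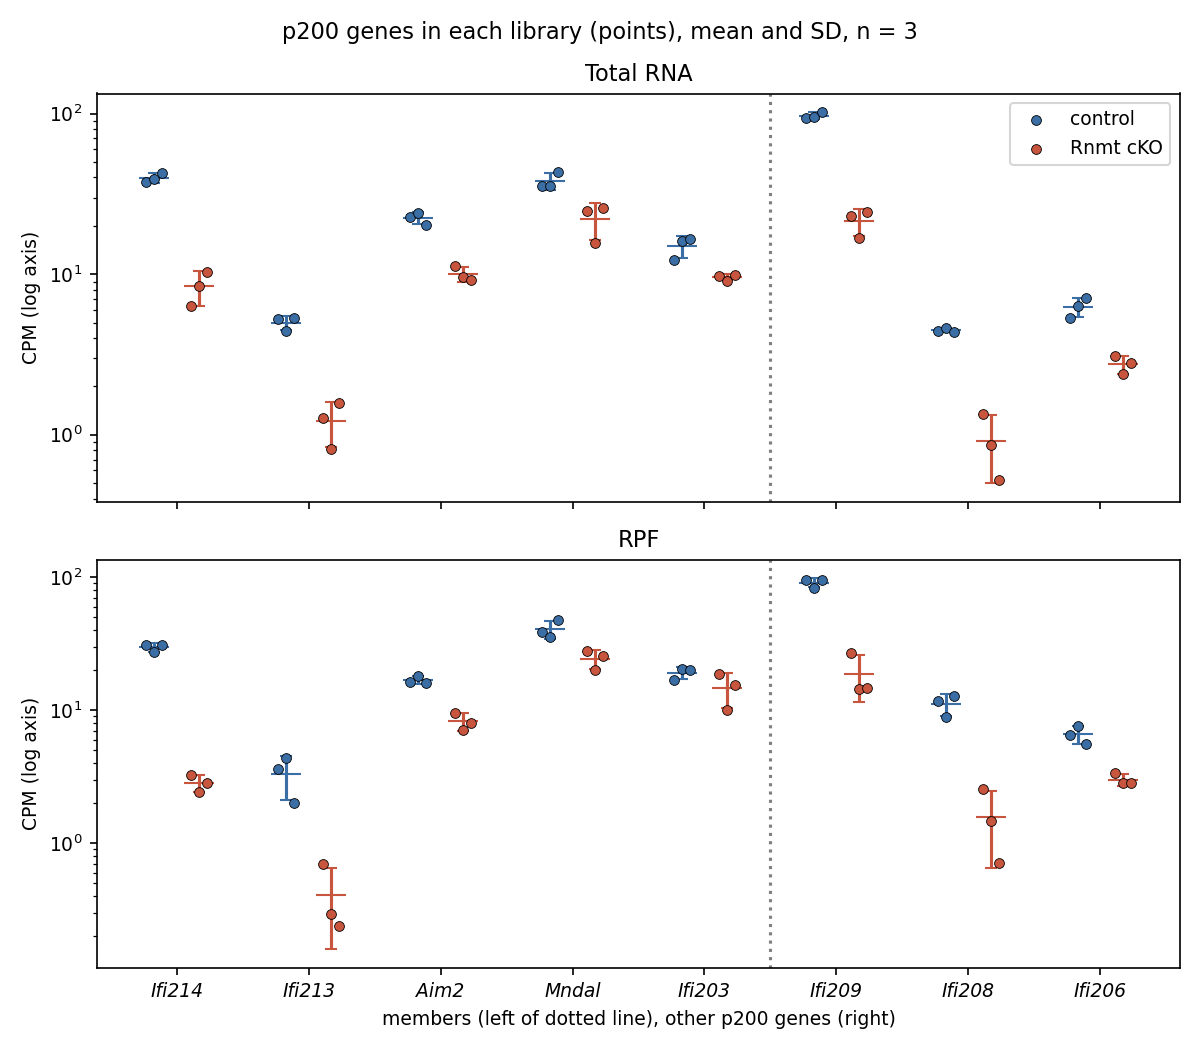
CPM (log axis) of the 5 members with reads, left of the dotted line, and of 3 other p200 genes, in each total RNA library (top) and RPF library (bottom); points are libraries, horizontal bars means and error bars SD (n = 3). Control and Rnmt cKO libraries do not overlap for any gene except Ifi203 in RPFs.

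The RPF difference of Ifi214 was larger than that of its RNA, as was that of Ifi213 with a wide error, while those of Aim2 and Mndal were close to those of their RNA and that of Ifi203 was smaller than that of its RNA. In RPFs, all *Rnmt* cKO libraries were below all controls for 4 of the 5 members, as for 26.7% of the 11428 genes tested, and above them for 19.0% of genes, with 15.7% called decreased.

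Ifi214 RPF levels were 31.1, 27.3 and 31.0 CPM in controls and 3.24, 2.44 and 2.86 in *Rnmt* cKO. This was 9.54% of the control mean and a log2 fold change of -3.36 (SE 0.16). Both groups were tight, and the counts behind the *Rnmt* cKO values were 28, 25 and 12.

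Ifi213 RPF levels were 3.62, 4.36 and 2.00 CPM in controls and 0.694, 0.293 and 0.238 in *Rnmt* cKO. It passed the filter through the controls alone. Its log2 fold change was -2.87 (SE 0.52), from 6, 3 and 1 counts in the *Rnmt* cKO libraries, and ran from -3.48 to -2.57 with *Rnmt* cKO replicate 1 or 2 left out. The size of this difference was therefore poorly determined.

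Aim2 RPF levels were 16.5, 18.2 and 16.0 CPM in controls and 9.60, 7.13 and 8.10 in *Rnmt* cKO, a log2 fold change of -0.99 (SE 0.16). Mndal had 38.8, 35.8 and 47.9 CPM against 27.9, 20.2 and 25.5, a log2 fold change of -0.71 (SE 0.15). Neither gene's groups overlapped. Ifi203 had 16.9, 20.6 and 20.1 CPM against 18.9, 10.1 and 15.5, with a log2 fold change of -0.35 (SE 0.23). Its groups overlapped, since *Rnmt* cKO replicate 1 was above control replicate 1. Its value was -0.58 when that *Rnmt* cKO library was left out, and -0.098 when *Rnmt* cKO replicate 2 was.

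Translation efficiency (TE) was taken as the RPF change beyond the total RNA change, fitted as an interaction term across the 12 libraries. The log2 TE difference was -1.15 (SE 0.24) for Ifi214 and -0.87 (SE 0.58) for Ifi213. It was 0.16 (SE 0.19) for Aim2, 0.06 (SE 0.26) for Mndal and 0.28 (SE 0.28) for Ifi203, in each case about the size of its SE or smaller. Over the 10668 genes tested the median was 0.04, 6.57% of genes were called decreased and 3.24% increased. Leaving out 1 replicate gave -1.44 to -0.997 for Ifi214 and -1.48 to -0.49 for Ifi213, the larger differences without *Rnmt* cKO replicate 1 and the smaller without *Rnmt* cKO replicate 3. For Ifi203 it gave 0.045 to 0.50, the ends being those with *Rnmt* cKO replicate 1 or 2 left out. For Aim2 it gave 0.087 to 0.27, with *Rnmt* cKO replicate 3 or 2 left out, and for Mndal 0.0047 to 0.14, with *Rnmt* cKO replicate 2 or 3 left out.

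RPFs were also compared with total RNA within control cells. The control libraries supplied 1 side of the differences that the members were chosen for, so the values of the members are given here, too, as a description and without p-values. The log2 difference of RPF over total RNA was -0.63 for Aim2 (SE 0.11), -0.63 for Ifi214 (SE 0.09) and -0.81 for Ifi213 (SE 0.27). It was -0.11 for Mndal (SE 0.12) and 0.14 for Ifi203 (SE 0.14). The Ifi213 value ran from -1.10 to -0.50, with control replicate 2 or 3 left out. CPM values were scaled within each kind of library and are not on the scale of these differences.

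Of the other p200 genes, Ifi208 had more footprints relative to its RNA, with a log2 difference of 1.11 (SE 0.17, adjusted p = 0.00023, edgeR). It had 11.8, 8.86 and 12.8 CPM in control RPFs and 4.40, 4.62 and 4.38 in control total RNA. Ifi209 had fewer by a small margin (-0.30, SE 0.07, adjusted p = 0.0031, edgeR), and Ifi206 did not pass (-0.14, SE 0.19, adjusted p = 0.51, edgeR). Of the 11544 genes tested, 39.7% were called lower in RPFs and 36.5% higher. This comparison depended on the scaling of the libraries: without TMM scaling the median of all genes moved from -0.05 to 0.17 and the calls from 4581 lower and 4215 higher to 3711 lower and 5146 higher. Aim2, Ifi214 and Ifi213 stayed below 0 and Ifi208 above it without TMM, Ifi209 was no longer called (-0.09), and Mndal (0.10) and Ifi206 (0.068) changed sign.

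All 3 of the other p200 genes with enough reads to test decreased in *Rnmt* cKO, in total RNA, as did 28.0% of all genes, and in RPFs, as did 15.7%. Ifi209, the most abundant of the family in control cells, had 93.9, 95.1 and 102 CPM in control total RNA and 23.1, 16.8 and 24.3 in *Rnmt* cKO. It fell by 2.17 on the log2 scale in total RNA (SE 0.12, adjusted p = 1.4e-05, edgeR) and fell by 2.23 in RPFs (SE 0.22, adjusted p = 0.00032, edgeR), where it went from 95.7, 83.4 and 95.4 CPM to 27.2, 14.5 and 14.8. No library of either group came near the other group.

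Ifi208 fell by 2.34 in total RNA (SE 0.28, adjusted p = 0.00030, edgeR) and fell by 2.69 in RPFs (SE 0.35, adjusted p = 0.0011, edgeR). It passed the filter in total RNA with all 3 controls and 1 *Rnmt* cKO library above a CPM of 1, thus mainly through the group where it was higher. Its *Rnmt* cKO libraries held 20, 17 and 12 counts in total RNA and 22, 15 and 3 in RPFs. Ifi206 had 5.35, 6.37 and 7.08 CPM in control total RNA and 3.08, 2.38 and 2.80 in *Rnmt* cKO, and fell by 1.18 (SE 0.16, adjusted p = 0.00061, edgeR) there and fell by 1.09 in RPFs (SE 0.24, adjusted p = 0.011, edgeR). None of the 3 passed in TE, with log2 differences of -0.05 (SE 0.26) for Ifi209, -0.34 (SE 0.48) for Ifi208 and 0.09 (SE 0.27) for Ifi206 and adjusted p-values of 0.94, 0.72 and 0.88 in edgeR.

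The make-up of the family's reads differed between genotypes. Ifi209 supplied 43.3%, 42.2% and 42.2% of all p200 counts in total RNA controls and 28.3%, 26.3% and 28.5% in *Rnmt* cKO. Mndal went the other way, from 16.3%, 15.7% and 17.8% to 30.5%, 24.3% and 30.5%, and took the largest share in all 3 RPF *Rnmt* cKO libraries with 29.5%, 34.1% and 36.0%. Ifi214 supplied 14.1%, 13.2% and 13.4% of the family's RPF counts in controls and 3.43%, 4.12% and 4.04% in *Rnmt* cKO. These shares need no scaling between libraries, and the groups did not overlap for any of the 3 genes in either kind of library. The counts of the whole family were 4091, 4240 and 4480 in total RNA controls and 1218, 1264 and 1947 in *Rnmt* cKO.

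**Figure D2:**
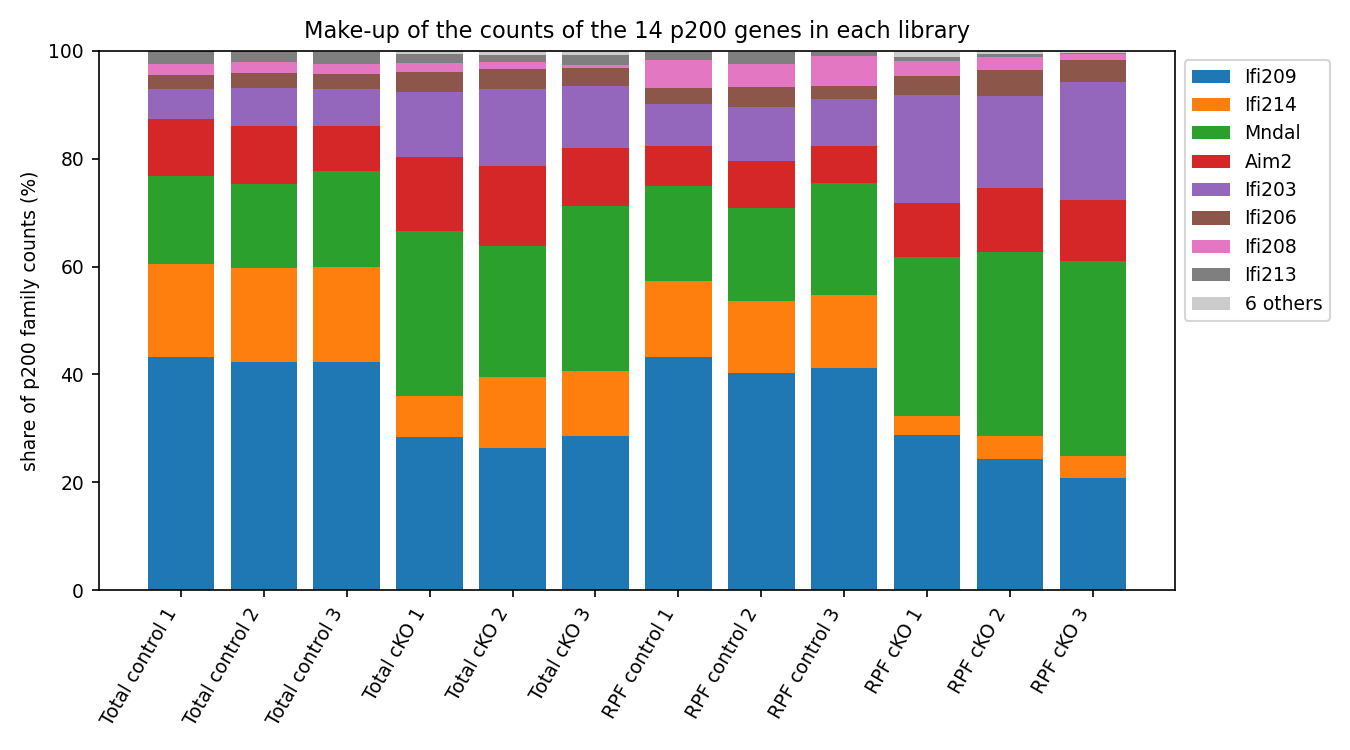
Share (%) of the summed counts of the 14 p200 genes that each gene supplied, 1 bar per library, 3 replicates in each group of total RNA and RPF. Ifi209, Ifi214, Ifi213 and Ifi208 take smaller shares in every Rnmt cKO library than in any control library of the same kind. Mndal, Ifi203 and Aim2 take larger shares there, Aim2 by a small margin in total RNA.

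Most p200 genes shared stretches of sequence with their relatives, and reads that align to several places were left out of the counts. The share of a gene's 30-base stretches found in no other annotated gene was 94.3% for Aim2, 78.8% for Ifi214, 77.5% for Ifi203, 72.6% for Ifi213, 70.7% for Mndal and 64.4% for Ifi204. It was 51.9% for Ifi209 and 20.7% for Ifi211. The share of 30-base stretches shared with other p200 genes was 0.0% for Aim2, against 20.8% for Ifi214, 21.2% for Ifi203, 26.3% for Ifi213, 25.7% for Mndal and 47.7% for Ifi209. The levels of these latter genes are for this reason uncertain where reads are as short as footprints. Reads with several alignments made up 28.7% to 30.1% of total RNA control libraries and 24.3% to 27.3% of *Rnmt* cKO libraries. In RPFs they made up 22.9% to 25.4% of control and 23.5% to 31.0% of *Rnmt* cKO libraries, and their part in the p200 differences was not tested. Mndal and Ifi203 also shared 37 exonic bases in the annotation, 1.79% and 0.733% of their exons.

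Along the chromosome the largest differences lay in the middle of the tested genes. Ifi214, Ifi213, Ifi209 and Ifi208 followed each other among these and had log2 fold changes from -2.34 to -2.01 in total RNA. Aim2 and Ifi206 on one side had -1.16 and -1.18, and Mndal and Ifi203 on the other side -0.77 and -0.63. This order is a description of 8 genes.

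Few genes around the cluster had reads. Of 67 other genes within 1 Mb on either side, 4 could be tested in total RNA and 5 in RPFs, all on the Aim2 side. Dusp23, which encodes a dual-specificity phosphatase, fell by 1.35 in total RNA (SE 0.30, adjusted p = 0.0063, edgeR), and the annotated gene Gm37145 fell by 1.42 (SE 0.37, adjusted p = 0.013, edgeR). Pigm, which encodes a mannosyltransferase of GPI anchor synthesis, rose by 0.32 in total RNA (SE 0.06, adjusted p = 0.0035, edgeR) and by 0.53 in RPFs (SE 0.10, adjusted p = 0.0066, edgeR). Tagln2, at 0.04 (SE 0.09, adjusted p = 0.75, edgeR) in total RNA, did not pass. Both Dusp23 and Gm37145 exceeded a CPM of 1 in total RNA in control libraries alone, and so entered the test through the group where they were higher. With any 1 control library left out they were not tested, and with 1 *Rnmt* cKO library left out the values ran from -1.59 to -1.03 for Dusp23 and from -1.90 to -1.17 for Gm37145. In RPFs, 2 neighbours rose in place of 1 without control replicate 3.

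**Figure D3:**
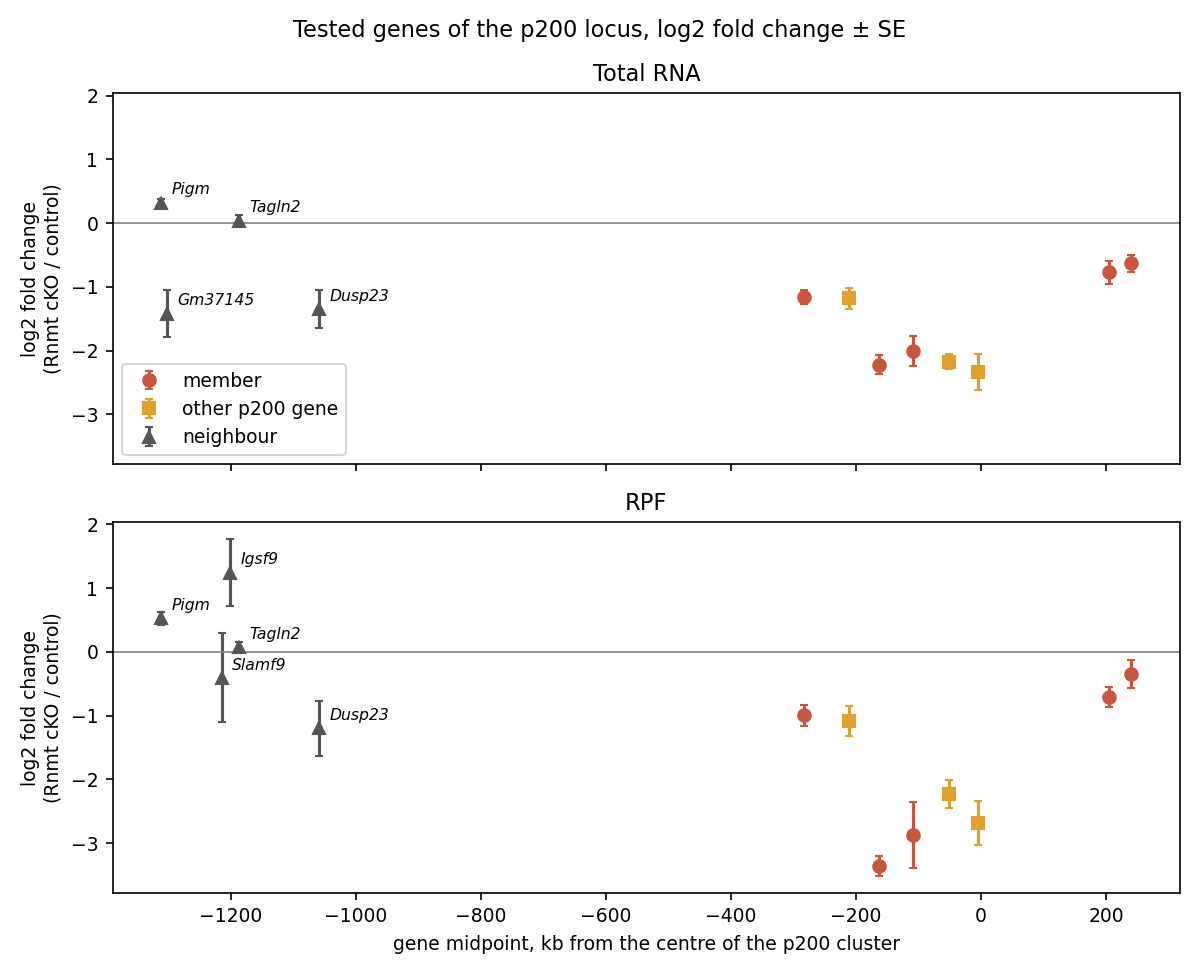
Log2 fold change (Rnmt cKO over control) ± SE of the tested p200 genes and their neighbours against the distance of the gene's midpoint from the centre of the cluster (kb), in total RNA (top) and RPFs (bottom). All p200 genes shown lie below 0. Dusp23 lies below 0 in both, Gm37145 in total RNA and Slamf9 in RPFs. Pigm lies above 0 in both and Igsf9 in RPFs, whereas Tagln2 lies close to 0.

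Other genes induced by type I interferon fell and rose in equal numbers. Of 75 genes listed as induced by type I interferon, outside the p200 family, 63 were tested in total RNA, where 13 decreased and 13 increased, with a median log2 fold change of -0.04. Over all genes tested, 28.0% decreased and 26.3% increased, with a median of -0.00. In RPFs 12 of 62 decreased and 12 increased, with a median of -0.00, where 15.7% and 14.1% of all genes did. Without control replicate 1 the RPF increases numbered 5, and without *Rnmt* cKO replicate 1 or 2 they numbered 7.

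Trim34a, a tripartite motif gene, fell by 2.15 in total RNA (SE 0.22, adjusted p = 0.00014, edgeR), from 18.8, 21.7 and 22.3 CPM to 5.42, 2.89 and 5.78, and fell by 2.04 in RPFs (SE 0.23, adjusted p = 0.00062, edgeR). Phf11b fell in both (-1.12, SE 0.18, and -1.34, SE 0.20), as did Ifit2, which binds viral RNA (-1.06, SE 0.09, and -0.88, SE 0.15), and Znfx1, an RNA helicase gene (-0.84, SE 0.08, and -1.05, SE 0.10). The rises were led by Isg15, a ubiquitin-like modifier, at 1.77 in total RNA (SE 0.28, adjusted p = 0.0011, edgeR) and 1.38 in RPFs (SE 0.26), by its conjugating enzyme Ube2l6 at 1.61 and 2.28 (SE 0.37 and 0.55), by the torsin gene Tor3a at 1.54 and 1.47 (SE 0.20 and 0.24) and, in RPFs, by Ifitm3, which restricts virus entry, at 2.06 (SE 0.47). Isg15 was low in all total RNA libraries, with 0.636, 0.850 and 1.08 CPM in controls and 3.75, 2.84 and 2.28 in *Rnmt* cKO, and passed the filter mainly through the *Rnmt* cKO libraries, as did Ube2l6 in total RNA and Ifitm3 in RPFs. Ube2l6 in RPFs did not pass without control replicate 1 or *Rnmt* cKO replicate 2, with adjusted p-values of 0.051 and 0.066 in edgeR.

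Among interferon signalling genes, the receptor chains Ifngr1 and Ifnar1 decreased, and Ifng, Irf8, Jak2 and the Socs genes increased. The receptor chain gene Ifnar2 increased in RPFs. Of 20 tested in each kind of library, 3 decreased and 6 increased in total RNA (median 0.12), and 3 decreased and 6 increased in RPFs (median 0.15). Among all genes tested 28.0% and 26.3% did in total RNA, and 15.7% and 14.1% in RPFs. Ifng, which encodes interferon gamma, had 1.91, 1.43 and 3.08 CPM in control total RNA and 18.6, 23.4 and 18.3 in *Rnmt* cKO. It rose by 3.24 (SE 0.24, adjusted p = 3.6e-05, edgeR), and by 3.84 in RPFs (SE 0.19, adjusted p = 2.7e-05, edgeR). Ifnb1, which encodes interferon beta, had no read in any of the 12 libraries.

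The receptor chains Ifngr1 and Ifnar1 fell in total RNA (-0.75, SE 0.09, and -0.28, SE 0.05) and in RPFs (-0.55, SE 0.11, and -0.39, SE 0.09). The receptor chain gene Ifnar2 rose by 0.34 in RPFs (SE 0.09, adjusted p = 0.021, edgeR) and had 0.05 (SE 0.08) in total RNA. Ifngr2 had -0.22 (SE 0.16) in total RNA and -0.18 (SE 0.19) in RPFs, and passed in neither. The kinase gene Jak1 fell by 0.40 in RPFs (SE 0.06) and had -0.05 (SE 0.11) in total RNA. The kinase gene Jak2 rose by 1.12 in total RNA (SE 0.08) and by 0.87 in RPFs (SE 0.10). The transcription factor gene Irf3 fell by 0.28 in total RNA (SE 0.08) and had -0.10 (SE 0.06) in RPFs. Irf8, a transcription factor, rose by 1.69 and 1.85 (SE 0.32 and 0.32). Its values ran from 1.42 to 2.18 in total RNA and from 1.53 to 2.34 in RPFs, lowest without control replicate 1 and highest without control replicate 3, the control with the most B cell and dendritic marker reads, whose part was not tested. The feedback inhibitors Socs3 and Socs1 rose by 1.32 and 1.27 in total RNA (SE 0.09 and 0.17) and by 1.19 and 1.37 in RPFs (SE 0.16 and 0.29). Irf3 did not pass without control replicate 1 or without *Rnmt* cKO replicate 1 or 2 (adjusted p from 0.070 to 0.092, edgeR), nor Ifnar1 in RPFs without *Rnmt* cKO replicate 1 (adjusted p = 0.052, edgeR).

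Of 40 genes tested as induced by interferon gamma, 4 decreased and 14 increased in total RNA, with a median of 0.23, and of 37 in RPFs 2 decreased and 12 increased, with a median of 0.28. These counts stand beside 28.0% of all genes decreased and 26.3% increased in total RNA, and 15.7% and 14.1% in RPFs. With no filter on low counts, more of these genes decreased in both kinds of library and more increased in RPFs. Cxcl10, a chemokine gene, rose by 2.24 and 2.53 (SE 0.44 and 0.48), and Serpina3g, a protease inhibitor gene, by 2.21 and 3.02 (SE 0.52 and 0.59). Irgm2, an immunity-related GTPase gene, fell in both (-1.24, SE 0.20, and -1.06, SE 0.17). The proteasome subunit gene Psmb9 and the proteasome activator gene Psme1 fell in total RNA (-0.42, SE 0.12, and -0.26, SE 0.07), and had -0.16 (SE 0.16) and -0.05 (SE 0.07) in RPFs. The guanylate-binding protein gene Gbp10 fell in RPFs (-1.42, SE 0.44) and had -1.03 (SE 0.40) in total RNA.

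Cxcl10 passed the filter mainly through the *Rnmt* cKO libraries, with 0.159, 0.903 and 1.24 CPM in total RNA controls and 3.75, 3.96 and 3.20 in *Rnmt* cKO. Single libraries moved these values. Leaving out 1 library gave 1.76 to 2.76 for Cxcl10 and 1.88 to 3.01 for Serpina3g in total RNA, and 2.21 to 2.92 and 2.74 to 3.77 in RPFs, in each case with the call kept. The lowest total RNA values were those without control replicate 1 and the highest those without control replicate 3. With *Rnmt* cKO replicates 1 and 2 both left out, Serpina3g had 1.21 in total RNA and 1.40 in RPFs and was not called (adjusted p = 0.12 and 0.26, edgeR). Without control replicate 3 the increases numbered 25 in total RNA and 20 in RPFs. The decreases in total RNA numbered 8 without control replicate 1. They numbered 1 when *Rnmt* cKO replicate 1 was left out and 2 when *Rnmt* cKO replicate 2 was. Those in RPFs numbered 5 without control replicate 1 and 1 without control replicate 2 or 3 or *Rnmt* cKO replicate 2 or 3. Psmb9 did not pass without control replicate 2 or *Rnmt* cKO replicate 1 or 2 (adjusted p from 0.051 to 0.053, edgeR), Psme1 without *Rnmt* cKO replicate 1 or 2 (adjusted p 0.065 and 0.057, edgeR), and Gbp10 without control replicate 2 or 3 or *Rnmt* cKO replicate 2 or 3 (adjusted p from 0.066 to 0.13, edgeR).

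Pycard, which encodes the inflammasome adaptor of AIM2, decreased in *Rnmt* cKO, and Casp1 increased in RPFs. Of 26 genes tested for DNA sensing and inflammasomes, 8 decreased and 5 increased in total RNA (median 0.04), and 6 decreased and 1 increased in RPFs (median 0.01), where 28.0% and 26.3% of all genes changed in total RNA and 15.7% and 14.1% in RPFs. Pycard had 147, 142 and 123 CPM in control total RNA and 80.9, 68.8 and 96.7 in *Rnmt* cKO, a log2 fold change of -0.73 (SE 0.12, adjusted p = 0.0012, edgeR), and it fell by 0.57 in RPFs (SE 0.08, adjusted p = 0.0021, edgeR). Casp1, the inflammasome protease gene, rose by 0.95 in RPFs (SE 0.22, adjusted p = 0.013, edgeR), from 3.90, 4.51 and 5.25 CPM to 7.75, 10.2 and 7.62.

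The cytosolic DNA sensor gene Cgas and Tmem173, which encodes STING, rose in total RNA by 0.71 and 0.65 (SE 0.10 and 0.07), as did the RNA polymerase III subunit gene Polr3b by 0.50 (SE 0.06). In RPFs their values were 0.13 (SE 0.26), 0.20 (SE 0.09) and 0.04 (SE 0.06), and none passed. Rnaseh2b, a subunit of the nuclease that removes RNA from DNA, fell in both (-0.89, SE 0.06, and -0.61, SE 0.08), as did Prkdc, the DNA-dependent protein kinase gene (-0.73, SE 0.12, and -0.80, SE 0.13). Without control replicate 1, the increases in total RNA numbered 3 and the decreases in RPFs 3, and leaving out *Rnmt* cKO replicate 1 also gave 3 increases in total RNA. Casp1, the gene that rose in RPFs, did not pass without *Rnmt* cKO replicate 2 (adjusted p = 0.056, edgeR), and 2 genes rose without *Rnmt* cKO replicate 3.

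Markers of other cell types moved with genotype in some libraries. The summed CPM of 12 B cell markers was 13.2, 8.12 and 48.2 in total RNA controls and 118, 154 and 25.2 in *Rnmt* cKO. That of 10 dendritic cell markers was 5.56, 7.01 and 20.5 against 62.6, 66.3 and 17.6, and that of 14 myeloid markers 1.22, 2.34 and 4.76 against 15.5, 13.0 and 5.12. *Rnmt* cKO replicates 1 and 2 were thus the highest, and *Rnmt* cKO replicate 3 was below control replicate 3 for B cell and dendritic markers.

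The sum of the 6 members was 113, 119 and 128 CPM in total RNA controls and 53.5, 43.5 and 57.0 in *Rnmt* cKO. In RPFs it was 107, 106 and 117 against 60.4, 40.1 and 52.2. Among the *Rnmt* cKO libraries replicate 2 had the lowest sum in both kinds, and the highest was replicate 3 in total RNA and replicate 1 in RPFs. With *Rnmt* cKO replicates 1 and 2 left out, a choice made after seeing the data, the log2 fold changes in total RNA were -1.92 for Ifi214, -1.65 for Ifi213, -1.28 for Aim2, -0.53 for Mndal and -0.59 for Ifi203. Those in RPFs were -3.32 for Ifi214, -3.65 for Ifi213, -0.62 for Mndal and -0.25 for Ifi203, and that of Aim2 moved by less than its SE. A lone *Rnmt* cKO library was then assumed to vary like the controls. Ifi209 and Ifi208 still fell in both, and Ifi206 in total RNA. In RPFs Ifi206 had -1.14, close to its value with all libraries, and was no longer called (adjusted p = 0.14, edgeR). Over all genes, calls in RPFs went from 1796 decreased and 1612 increased to 520 and 477 in this smaller fit, and 1 type I, 1 interferon gamma-induced and 3 signalling genes then increased in RPFs.

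Among the B cell markers Ms4a1 was the most abundant, at 3.13, 1.70 and 13.4 CPM in total RNA controls and 33.3, 40.4 and 7.70 in *Rnmt* cKO. Of 7 tested in total RNA 3 increased, among them Cd79b by 1.92 (SE 0.50, adjusted p = 0.012, edgeR), where 26.3% of all genes did. Of 10 in RPFs 4 increased, where 14.1% of all genes did, among them Ebf1 by 2.56 (SE 0.75, adjusted p = 0.033, edgeR). Ebf1 had 0 to 1.25 CPM in RPF controls and 1.43 to 4.98 in *Rnmt* cKO. It thus passed the filter mainly through the group where it was higher. Ebf1 did not pass without control replicate 1 or *Rnmt* cKO replicate 1 or 2 (adjusted p from 0.074 to 0.11, edgeR). H2-Ab1 was the most abundant dendritic marker, and all 3 tested dendritic genes increased in both kinds, beside the same shares of all genes, Zbtb46 by 2.05 in total RNA (SE 0.37) and 2.78 in RPFs (SE 0.55). Cd209a and Clec9a, which mark dendritic cell subsets, had no read in any library.

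Cybb was the most abundant myeloid marker, and 2 of 2 tested myeloid genes increased in total RNA (26.3% of all genes), Mpeg1 by 1.88 (SE 0.50). In RPFs 2 of 4 increased (14.1% of all genes), Fcer1g by 4.20 (SE 0.74, adjusted p = 0.0043, edgeR) and Spi1 by 2.99 (SE 0.96, adjusted p = 0.047, edgeR). There Mpeg1 (2.11, SE 0.76) and Cybb (2.11, SE 0.85) did not pass (adjusted p = 0.068 and 0.095, edgeR). Of the 14 listed, the others were not tested, and Mpeg1 and Cybb passed the filter mainly through the *Rnmt* cKO libraries. Fcer1g and Spi1, not tested in total RNA, also needed *Rnmt* cKO libraries to pass it in RPFs. The 14 markers summed to 1.62, 2.25 and 8.63 CPM in RPF controls and to 23.8, 32.1 and 7.38 in *Rnmt* cKO. These counts of increased genes were thus largely set by the filter. Of 8 NK cell markers, Nkg7 was the most abundant and rose by 1.43 in total RNA (SE 0.22) and 1.74 in RPFs (SE 0.13). The other gene of 2 tested in total RNA, Klrd1, had -0.36 (SE 0.25, adjusted p = 0.26, edgeR) and in RPFs -0.21 (SE 0.49, adjusted p = 0.77, edgeR). In RPFs 2 of 3 increased (14.1% of all genes), Nkg7 and Gzma, the latter by 7.30 (SE 1.28, adjusted p = 0.0042, edgeR). Gzma was not tested in total RNA and passed the filter in RPFs through the *Rnmt* cKO libraries alone, so its call was largely set by the filter. With 1 library left out, Gzma had 6.69 to 9.13. The NK cell list summed to 5.67, 7.17 and 8.81 CPM in total RNA controls and 15.1, 17.9 and 14.7 in *Rnmt* cKO. Cd8a and Cd8b1 summed to between 9.98 and 41.9 CPM in total RNA, and neither passed (-0.63, SE 0.54, adjusted p = 0.35, and -0.52, SE 0.26, adjusted p = 0.12, edgeR).

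The cells carried T cell markers in every library. Cd4 stood at 350, 325 and 317 CPM in total RNA controls and 294, 266 and 320 in *Rnmt* cKO, and Cd28 was the most abundant of 11 T cell markers. Of these 11, 5 decreased in total RNA and 6 in RPFs, where 28.0% and 15.7% of all genes did. Cd3g fell in total RNA (-1.23, SE 0.11) and RPFs (-0.94, SE 0.08), as did the kinase gene Lck (-0.90, SE 0.06, and -0.94, SE 0.06). The kinase gene Zap70 also fell in both (-0.89, SE 0.10, and -0.62, SE 0.09). Thy1 fell in RPFs (-0.63, SE 0.10) and had -0.21 (SE 0.16) in total RNA. The part of other cells in the p200 values was not tested beyond the values without *Rnmt* cKO replicates 1 and 2.

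**Figure D4:**
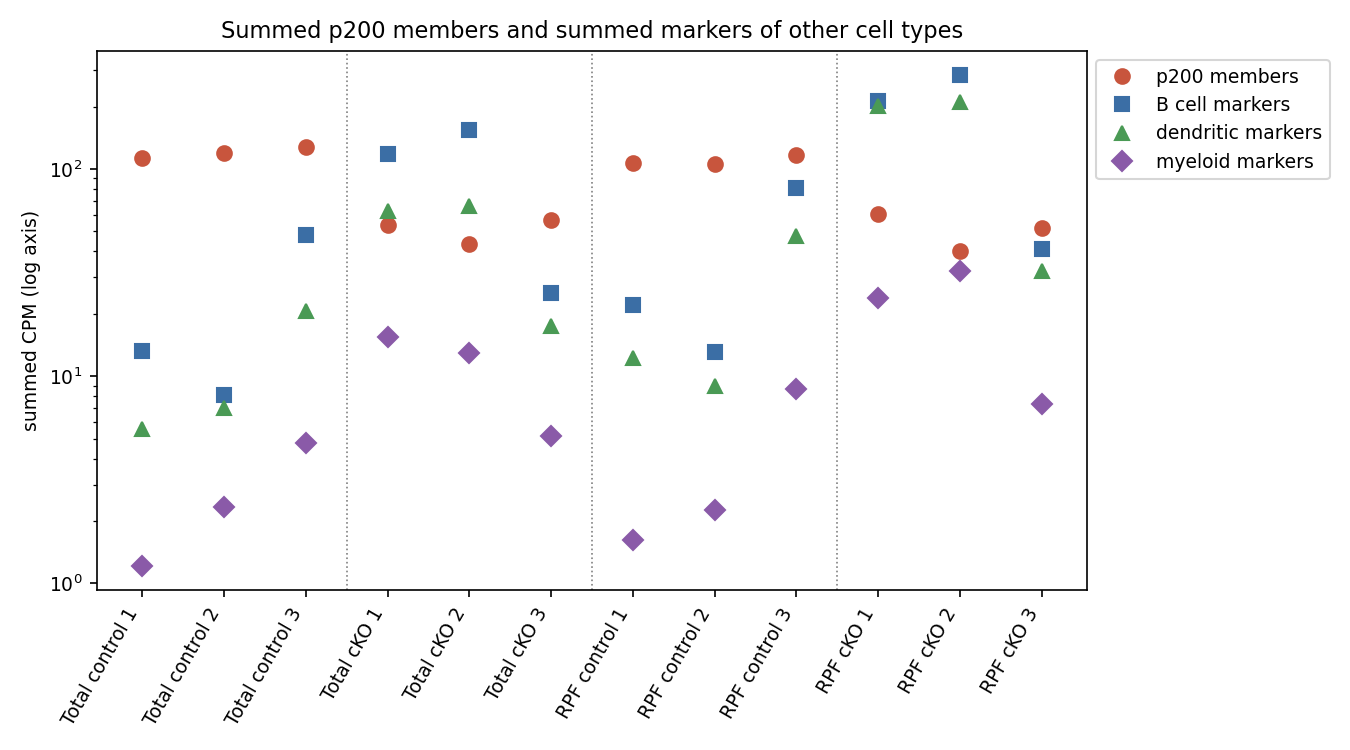
Summed CPM (log axis) of the 6 p200 members and of B cell, dendritic and myeloid markers in each of the 12 libraries. Markers of other cells are highest in Rnmt cKO replicates 1 and 2, and the p200 sum lies between 40.1 and 60.4 in the Rnmt cKO libraries, lowest in replicate 2, and between 106 and 128 in the controls.

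The genes whose levels ran most like the mean of the members over the 12 libraries were Dapl1, Lck, Acot9, Snrk and Krcc1, with Pearson correlations of 0.993, 0.987, 0.986, 0.986 and 0.986 of log2 CPM centred within each kind of library. The 6671 genes compared had a median of -0.05. The libraries fell into 2 genotypes, so these values largely describe the evenness of a genotype difference. The log2 fold changes of the 5 genes in total RNA were -3.11 for Dapl1 (SE 0.22), -0.90 for Lck (SE 0.06), -0.85 for Acot9 (SE 0.09), -0.57 for Snrk (SE 0.07) and -1.58 for Krcc1 (SE 0.07). In RPFs they were -3.23, -0.94, -0.85, -0.57 and -1.57.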

How the data were processed

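The authors made libraries of total RNA and RPFs with a TruSeq Ribo Profile kit, removed adapters with cutadapt and rRNA and tRNA reads with Bowtie, and aligned read 2 with STAR 2.5.2b to mm10 with a Gencode annotation. The deposited counts are whole reads per gene, uniquely aligned, and the sense-strand column was taken. The authors' signal columns, counts divided by an effective library size, served to check which strand they had used and to name genes. Their comparison columns, which hold fold changes and p-values, were not used.

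Counts were scaled by TMM within total RNA and within RPF and fitted with edgeR 4.0.16 (quasi-likelihood, R 4.3.3), genotype within each kind, RPF against total RNA within controls, and both in 1 model for TE. A gene needed a CPM above 1 in 3 libraries of 6, and calls had an adjusted p under 0.05. The SE of a log2 fold change was its size over the square root of F. Alternatives were DESeq2 1.42.0, the edgeR exact test, no TMM, other filters, both strands, a replicate block and left-out libraries. Fits were tested on simulated data.

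The 6 members and all lists were chosen with earlier results of these data known. Named genes were *Rnmt*, the p200 genes with counts, per list up to 3 rises and 3 falls past the threshold without overlap, the called neighbours, the most abundant marker of each cell type and the 5 genes most like the mean of the members, counting genes whose mean log2 CPM reached 4 in total RNA and in RPFs. Cd4, Cd8b1, Klrd1, Ifnb1, Ifnar2, Ifngr2, Jak2, Spi1, Tagln2, Slamf9, Igsf9, Cd209a and Clec9a fall outside this rule and were named after their values were seen. Same-numbered total RNA and RPF control libraries deviated together (correlations of 0.159, 0.233 and 0.391). The main fits of RPFs against total RNA and of TE did not pair them, and their SEs and p-values are unpaired. Only the replicate block alternative paired them. Pairs of replicates differed by more than sampling noise (chi-square per degree of freedom from 4.22 to 35.0), so none was counted as 1 sample. Intervals of counting error were not used, and the depth of each library limits genes with few counts, such as Ifi213 and Ifi208.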

Additional observations from a re-analysis of the deposited data

How the results depend on the processing

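Across the alternatives, 586 repeats of results that answer a comparison were counted as unchanged, 51 moved, 4 lost and 1 gained a call and 4 changed sign. For genotype and TE values of the members, which were not tested, unchanged meant a shift under 1 SD between replicates, whatever the sign. For list counts it meant a count of similar size, and for tested genes the same direction and side of the threshold. For single named genes 969 repeats kept their direction and their side of the threshold, 42 lost a call and 2 changed sign. In total RNA and RPFs, the genotype differences of all 5 members with reads and of Ifi209, Ifi208 and Ifi206 kept their direction under every alternative run. With *Rnmt* cKO replicates 1 and 2 left out, an alternative chosen after seeing the data, the values were -1.65 for Ifi213 and -1.92 for Ifi214 in total RNA, -3.65 for Ifi213 and -1.14 for Ifi206 in RPFs, and -2.03 for Ifi213 in TE. In that setting, where calls over all genes in RPFs went from 1796 decreased and 1612 increased to 520 and 477, RPF calls were 1 decreased and 3 increased for interferon signalling, 7 and 1 for type I interferon, 0 and 1 for interferon gamma-induced genes, and 3 and 0 for DNA sensing, while 0 neighbours increased. In total RNA it gave 1 decreased and 7 increased interferon gamma-induced genes and 1 decreased neighbour.

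Without TMM, RPFs against total RNA in controls gave 0.35 for Ifi203, -0.59 for Ifi213, -0.09 for Ifi209, 0.10 for Mndal and 0.068 for Ifi206, the last 2 with the opposite sign. With no filter on low counts, 20 type I interferon genes increased and 10 interferon gamma-induced genes decreased in total RNA, and 5 of the latter decreased and 19 increased in RPFs. With at least 10 counts in every library, 1 interferon gamma-induced gene decreased in RPFs, and 0 neighbours decreased and 2 increased in total RNA. The edgeR exact test gave 1 decreased neighbour in RPFs.

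With a replicate block, Ifi214 had -2.25 in total RNA and -3.35 in RPFs, 1 interferon gamma-induced gene decreased in RPFs and 3 DNA sensing genes increased in total RNA. Gbp10, Ebf1 and Cd79b were no longer called with it, and no call of a p200 gene changed. The labels link control and *Rnmt* cKO libraries by number alone. Same-numbered libraries of the 2 genotypes correlated from -0.585 to -0.239 in total RNA and from -0.080 to 0.252 in RPFs. These values cannot tell whether libraries of the 2 genotypes shared a batch.

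Leaving out 1 replicate at a time gave -3.48 to -2.57 for Ifi213 in RPFs, -1.48 to -0.49 for Ifi213 in TE, -1.44 to -0.997 for Ifi214 in TE, and -1.10 to -0.50 for Ifi213 in the control comparison. Values near 0 changed sign: Ifi209 in TE (-0.39 to 0.13, with 0.016 and 0.13 without *Rnmt* cKO replicates 2 and 3), Ifi206 in TE (-0.11 to 0.20, with -0.11 without control replicate 3) and Ifi206 in the control comparison (-0.25 to 0.061, with 0.061 without control replicate 3). List counts ran from 5 to 12 for type I increases in RPFs, 1 to 8 and 10 to 25 for interferon gamma-induced decreases and increases in total RNA, and 1 to 5 and 8 to 20 in RPFs. They ran from 3 to 5 for DNA sensing increases in total RNA, 3 to 5 and 0 to 2 for decreases and increases in RPFs, 0 to 2 for decreased neighbours in total RNA, where Dusp23 and Gm37145 left the test without any 1 control, and 1 to 2 for increased neighbours in RPFs. TE calls over all genes ran from 415 to 812 decreased and 122 to 367 increased. The causes of these changes were not tested.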
